A study of Mus musculus with 7 samples.

Results

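Endothelial cells line blood and lymphatic vessels, and a lung tumour is fed by vessels taken over from the lung and by vessels that sprout into it. Vascular endothelial growth factor (VEGF) acts on them through the receptors Kdr and Flt1, the angiopoietins act through Tek, and the cells hold together through the adhesion molecules Cdh5 and Pecam1. In the lung, endothelial cells fall into arteries, veins, lymphatics, a general capillary type and the aerocyte, a large capillary cell that faces the alveolus. In tumours, tip cells at the front of a sprout carry Dll4, Apln, Angpt2 and Esm1, and the sheet behind them lays down a basement membrane of collagen IV, laminins, nidogens and perlecan.

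Here the endothelial nuclei of mouse small cell lung cancer were described, from single-nucleus RNA sequencing of fresh-frozen primary lung tumours of 4 male mice taken at endpoint. RP1 and RP2 carried Rb1 fl/fl and Trp53 fl/fl, and RPC1 and RPC2 carried the same alleles together with the conditional Casp8 allele, which the labels give as Casp8-/-. As young adults, all 4 mice inhaled an adenovirus with Cre under the CMV promoter. This promoter is not limited to 1 cell type, and which endothelial nuclei had recombined was not measured. Each of the 7 sequencing libraries pooled all 4 mice, so the mouse, told apart by its first-round barcode wells, is the replicate, and each genotype has 2. Below, pairs of values follow the order RP1 and RP2, or RPC1 and RPC2, and sets of 4 the order RP1, RP2, RPC1, RPC2.

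The nuclei were chosen by their own transcripts. A nucleus was taken as endothelial when at least 3 of 11 endothelial genes (Pecam1, Cdh5, Flt1, Kdr, Tek, Ptprb, Egfl7, Cyyr1, Calcrl, Ldb2 and Adgrl4) had a count and these genes together made up at least 0.25% of its transcripts. This kept 411 of 38254 nuclei: 74 of 8363 in RP1, 120 of 8874 in RP2, 83 of 10853 in RPC1 and 134 of 10164 in RPC2. Their median depth was 2150.5, 1597, 3101 and 1796.5 transcripts in the order of the mice, and all other nuclei had medians of 2256, 2228, 3392.5 and 2778. The sums over endothelial nuclei that all tests below rest on held 278850, 374368, 484811 and 402874 transcripts. Just inside the rule, 14 nuclei had 0.25 to 0.30% of their transcripts in the 11 genes. Just outside it, 33 nuclei with 3 or more of the genes had 0.20 to 0.25%. In all, 418 nuclei with 3 or more of the genes stayed below the percentage, and they were deep, with medians from 15771 to 39072 transcripts in the 4 mice.

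The label was checked against 30 other endothelial genes that the rule did not use. As the nuclei were selected on endothelial transcripts, this and the next paragraphs are a description with no test. Of the 30 genes, 29 were higher in endothelial nuclei than in all other nuclei in all 4 mice, and 24 were more than 2-fold higher in each. Levels are given as CPM, the summed count of a gene scaled to the same total in every mouse. Among 11946 genes at 5 CPM or more, 2125 were higher in all 4 mice and 553 more than 2-fold. Tie1, the orphan receptor beside Tek, reached 143 and 107 CPM in RP and 96.9 and 171 CPM in RPC, against 1.03, 0.999, 0.457 and 0.801 CPM in all other nuclei. Cldn5, a tight junction protein, was low throughout, at 10.8 and 16.0 CPM in RP and 6.19 and 32.3 CPM in RPC, but lower still in the other nuclei, whose highest value was 0.3997 CPM. Some genes often used as endothelial markers did not separate these nuclei. Vwf, the clotting factor stored in endothelial granules, stood at 810.5 and 1060.5 CPM in RP and 1757 and 1589 CPM in RPC in endothelial nuclei and at 688, 810.2, 2025 and 1215 CPM in all others. Erg, an ETS transcription factor of endothelium, was at 294 and 254 CPM in RP and 328 and 271 CPM in RPC, with 246, 156, 206 and 170.3 CPM in the others, and Prox1, the regulator of lymphatic fate, was lower in endothelial than in other nuclei in each mouse.

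The 25 leading genes, ranked by the smallest log2 ratio of endothelial to all other nuclei over the mice, began with Ldb2, Ptprb, Calcrl, Cyyr1, Flt1 and Adgrl4, all used by the rule. The rule genes Cdh5, Egfl7 and Pecam1 followed among genes that it did not use. Fgd5, an exchange factor for Cdc42 in endothelium, had 509 and 513 CPM in RP and 507 and 618 CPM in RPC and 3.28, 4.14, 2.74 and 4.11 CPM in the other nuclei. Adamts9, a secreted metalloprotease, had 986 and 1026 CPM in RP and 813 and 626 CPM in RPC, and the junction molecule Jam2 had 219 and 269.8 CPM in RP and 281 and 437 CPM in RPC. Eng, a co-receptor for BMP9, had 351 and 353 CPM in RP and 177 and 223 CPM in RPC, so that it was lower in both RPC mice. Mctp1 showed the reverse order, with 466 and 1031 CPM in RP and 1799 and 2271 CPM in RPC. Acer2, Dysf, St6galnac3, Fbxl7, Pdgfd, PTPRG, Sema6a, Gm30382, Afap1l1, Rasgrp3 and Hecw2 completed the list.

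**Figure D1:**
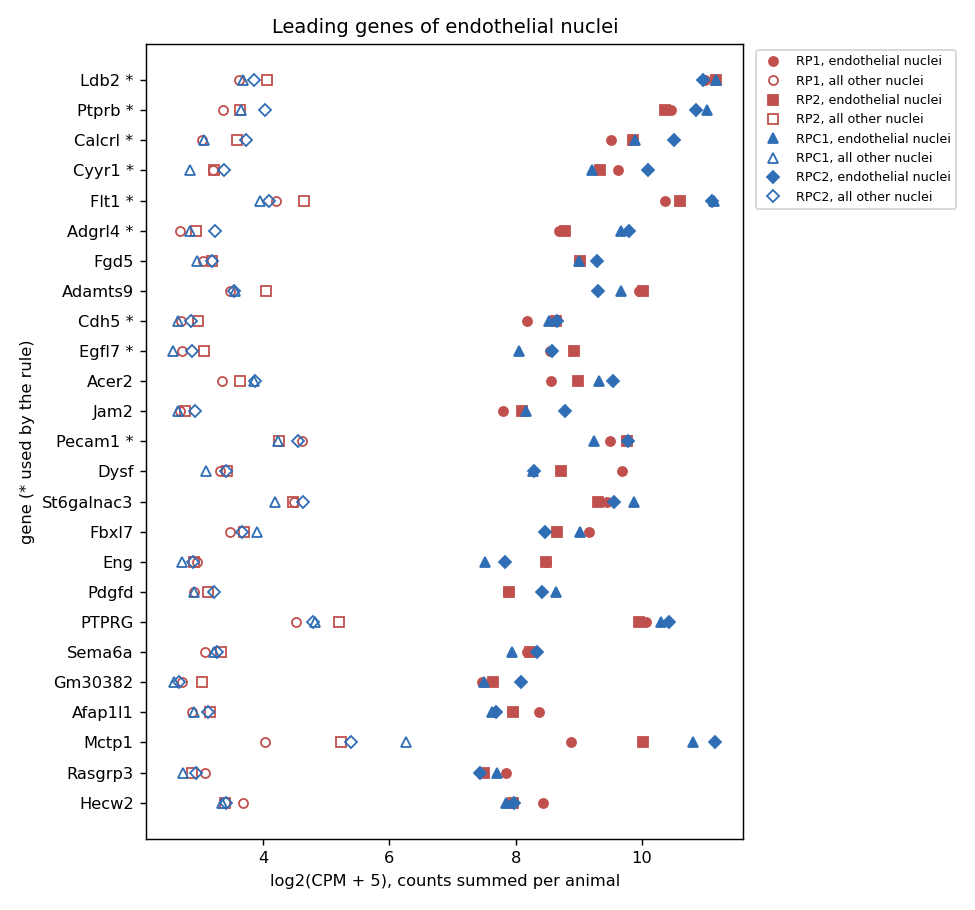
Level of the 25 leading genes as log2(CPM + 5), with counts summed per mouse, in endothelial nuclei (filled) and in all other nuclei (open). The lowest filled marker of each gene lies to the right of its highest open marker, and for Mctp1 the 4 filled markers run from 466 to 2271 CPM.

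Since these genes shared a high level in the same nuclei, their promoters were read for the ETS core, the letters bound by factors such as Erg, Fli1 and Ets1. RefSeq promoter sequence, on the build GRCm38.p6, was matched by symbol for 17 of the 25 genes, and the 250 bases before the start were read. The motif was AGGAAG or CGGAAG on either strand, read as CTTCCT or CTTCCG on the other one, and overlapping matches were each counted. It occurred in 10 of the 17 promoters (58.8%), and in 39.0% of the 27025 promoters of all genes, read over the same length. At least 2 matches stood in 17.6% of the former and 11.4% of the latter. Flt1, Egfl7 and Eng were the leading genes with 2 or more matches, and are shown for that reason, with the matches in capitals. A match is a description of letters, not a bound site.
Flt1, chr5:147726012-147726261, minus strand: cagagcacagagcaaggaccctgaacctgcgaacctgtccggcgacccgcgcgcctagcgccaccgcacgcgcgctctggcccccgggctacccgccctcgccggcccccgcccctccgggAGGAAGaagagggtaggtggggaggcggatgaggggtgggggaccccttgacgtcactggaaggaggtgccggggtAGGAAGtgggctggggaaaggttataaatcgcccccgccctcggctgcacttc
Egfl7, chr2:26580833-26581082, plus strand: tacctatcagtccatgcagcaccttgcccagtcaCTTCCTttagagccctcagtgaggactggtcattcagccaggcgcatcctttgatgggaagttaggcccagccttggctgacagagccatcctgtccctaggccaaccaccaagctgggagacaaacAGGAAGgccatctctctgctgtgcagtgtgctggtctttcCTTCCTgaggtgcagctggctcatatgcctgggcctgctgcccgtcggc
Eng, chr2:32646345-32646594, plus strand: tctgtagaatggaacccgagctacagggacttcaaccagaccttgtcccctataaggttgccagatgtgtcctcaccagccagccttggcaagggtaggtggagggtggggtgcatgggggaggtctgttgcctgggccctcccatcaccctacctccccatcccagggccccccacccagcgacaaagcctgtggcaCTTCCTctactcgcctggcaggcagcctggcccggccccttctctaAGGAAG

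Of the 3 factors named, Fli1 stood furthest above the other nuclei, with 799.7 and 777 CPM in RP and 437 and 499 CPM in RPC and 62.4, 69.2, 37.1 and 23.3 CPM in the others. Ets1 had 276 and 345 CPM in RP and 258 and 216 CPM in RPC in endothelial nuclei and 58.6, 103, 89.2 and 55.1 CPM elsewhere. Both factors were higher in endothelial nuclei in each mouse, and for Fli1 both RPC mice lay below both RP mice. In RPC against RP, Fli1 had a log2 fold change of -0.84 ± 0.23 (SE) with an unadjusted p of 0.00364 that did not pass adjustment (edgeR, adjusted p = 0.187).

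Transcripts of neuroendocrine tumour genes were also counted in endothelial nuclei. How they came to be there was not tested, and no doublet caller was run. A list of 14 neuroendocrine tumour genes made up 0.264, 0.232, 0.390 and 0.361% of their transcripts in RP1, RP2, RPC1 and RPC2, which was 55.2 to 65.1% of its level in all other nuclei. Calca, the gene of calcitonin and CGRP, had 329.9 and 470.1 CPM in RP and 1044 and 891 CPM in RPC and 735, 655, 1688 and 1601 CPM in the others. In 135 of the 411 nuclei this list met its own rule. Few nuclei met other lists. The mural list was met by 2 nuclei of RP1 and 1 of RP2, the macrophage list by 1, and none met the alveolar, fibroblast, T or NK, B, ciliated, club, mesothelial or megakaryocyte list. Mural genes took 0.0247 and 0.0134% of transcripts in RP and 0.00412 and 0.00348% in RPC, which was 411 and 296% of their level in all other nuclei in RP and 97.3 and 113% in RPC. The part of this tumour RNA in the genotype results below was not tested, beyond the counts given without the nuclei that carried most of it.

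The tumour genes were not spread evenly. At a resolution of 0.5, 6 sub-clusters were found, and as they were built from the same genes their levels are a description. Sub-cluster 1, 144 nuclei with a median of 5340.5 transcripts, had Negr1, Pacsin1, Fam83b, Best3, Ano9, Igf2bp2, Banf2 and Kcnq3 among its leading genes, and was left unnamed. Its neuroendocrine list stood at 73.3 to 79.7% of the level in other nuclei, with Calca at 975 CPM, and the 11 rule genes took a median of 0.565% of its transcripts. In sub-clusters 2 to 4 the neuroendocrine list was at 6.57 to 25.9% of the level of other nuclei, and the rule genes took medians of 1.94 to 2.46%. Sub-cluster 5 had a low rule share as well, 0.503%, with the neuroendocrine list at 20.3 to 48.4% of the level in other nuclei. Sub-cluster 1 was seen in every mouse, with 24, 37, 33 and 50 nuclei. The other sub-clusters had medians of 1347.5 to 1864 transcripts, and 32 nuclei of sub-cluster 1 lay above 4 times the median depth of their mouse. Sub-cluster 1 therefore weighed more in the sums per mouse, and in the CPM values from them, than its number of nuclei.

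Sub-cluster 2, 142 nuclei (34, 58, 23 and 27), was led by Samd5, Slc6a2, Kcnh1, Igfbp5, Itgb4, Nckap5l, Adam19, Iigp1, Smad3 and Ifi203. The general capillary, venous and tip or tumour vessel lists were above their levels in the remaining endothelial nuclei (medians of +1.36, +1.27 and +1.37 on the log2 scale). Sub-cluster 2 was therefore given no vessel name. Flt1 reached 4471 CPM, Col4a1, a collagen IV chain, 1662 CPM, Insr, the insulin receptor, 999.6 CPM, and Plvap, the protein of fenestral diaphragms, 119 CPM. In sub-clusters 3 to 5 Plvap had 1 count each, and Insr lay between 160.1 and 383 CPM.

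Sub-cluster 3, 59 nuclei (1, 10, 16 and 32), was general capillary-like, led by Adgrl3, Sema3c, Fam13c, Lpl, 8430419K02Rik, Krt80, Hmcn1, Fmo1, Edn1 and Hpgd. Sema3c, a semaphorin of the capillary list, reached 1361 CPM in sub-cluster 3, Lpl, lipoprotein lipase, 621 CPM, and Cd36, the fatty acid transporter, 1121 CPM. Sub-cluster 4, 34 nuclei (7, 10, 6 and 11), was arterial-like, led by Esr2, Gata6os, Plat, Gja5, Gata6, Bdkrb2, Sulf1, Pcsk5, Prkg1 and Bmx. Gja5, the arterial gap junction protein, was at 715 CPM there and at most 69.9 CPM in the others. Plat, the tissue plasminogen activator, was at 1098 CPM. Sub-cluster 5, 22 nuclei (8, 3, 3 and 8), was lymphatic-like, led by Reln, Mmrn1, Ccl21a, Klhl4, Sema3d, Pdpn, Sema3a, 4930578G10Rik, Plce1 and Myo18b. Flt4, the receptor for VEGF-C, was at 1399.6 CPM in it, while Flt1 was at 19.2 CPM and seen in 4.55% of its nuclei. Reln was seen in all 22. Sub-cluster 6, 10 nuclei (0, 2, 2 and 6), was led by Rgs6, Pcolce2, Dnah11, Lmntd1 and Shisa9 and had no name.

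**Figure D2:**
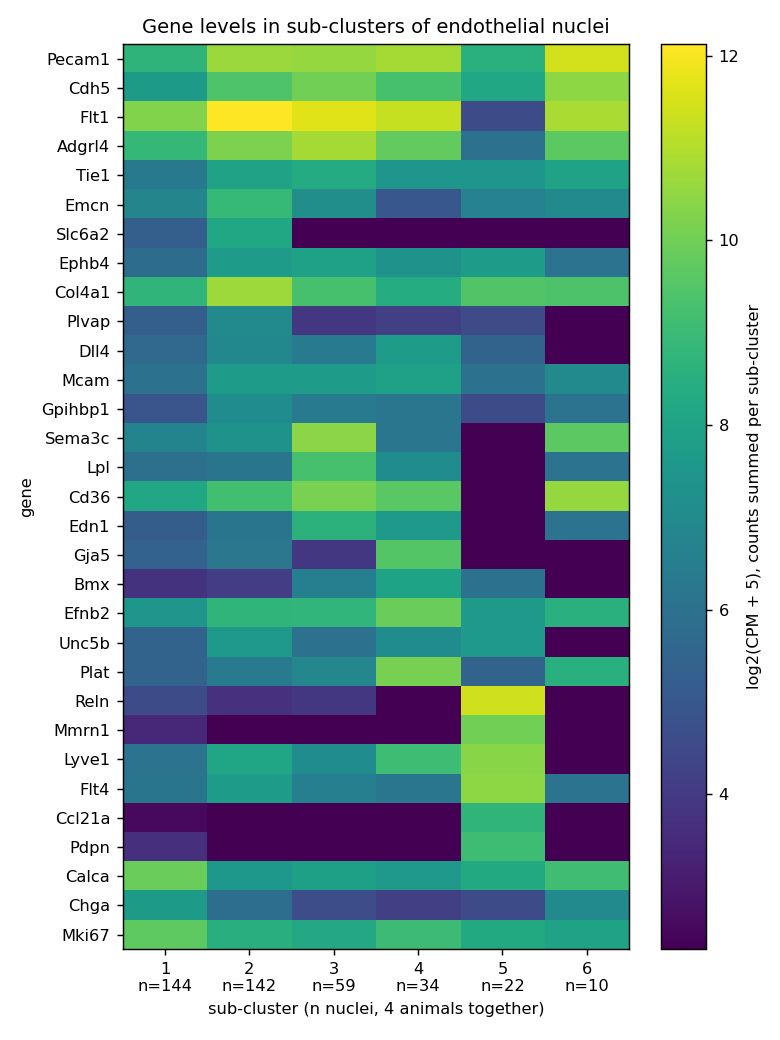
Level of 31 genes as log2(CPM + 5), counts summed over the nuclei of each of the 6 sub-clusters of the 4 mice together. Gja5 is brightest in sub-cluster 4 and Reln, Mmrn1 and Ccl21a in sub-cluster 5, while Calca, Chga and Mki67 are brighter in sub-cluster 1 than in sub-clusters 2 to 5.

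Aerocyte genes were low over all endothelial nuclei, with Car4, a carbonic anhydrase that defines the aerocyte, at 7.17 and 2.67 CPM in RP and 10.3 and 4.96 CPM in RPC, and Fibin and Rprml without a count. Their highest level was in sub-cluster 6, where the list took 0.14% of transcripts against 0.013 to 0.0307% in the others. Car4 reached 244 CPM there (4 counts, 30% of its 10 nuclei) and Prx, periaxin, 916 CPM (15 counts, 90% of its nuclei). As no aerocyte marker was among its 10 leading genes, the sub-cluster was given no name. Sizes of sub-clusters were not compared between genotypes, because Sema3c, Lpl and Hpgd, which led sub-cluster 3, had different levels in the 4 mice. At a resolution of 1.0 there were 9 sub-clusters. The general capillary-like, arterial-like and lymphatic-like groups came back with the same 10 leading genes, with 59, 35 and 22 nuclei. Separate groups then stood out with Gja1, Ifi203 and Nid2 in the lead (61 nuclei), with Selp, Slc6a2 and Samd5 (41 nuclei) and with Gm12002, Slit2, Cpa6, Angpt2, Btnl9 and Esm1 (35 nuclei).

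Whether RPC tumours held another share of endothelial nuclei was asked first. The share was 0.885% in RP1 and 1.35% in RP2, and 0.765% in RPC1 and 1.32% in RPC2, with exact 95% binomial intervals of 0.695 to 1.11, 1.12 to 1.61, 0.610 to 0.947 and 1.11 to 1.56%, which cover counting error only. The genotypes overlapped, and the mice of 1 genotype lay further apart than the means of the genotypes. The means were 1.12 ± 0.331% (SD, n = 2) in RP and 1.04 ± 0.391% (n = 2) in RPC, a difference of -0.0770 percentage points (exact permutation test, two-sided, p = 0.667). With 2 mice a genotype this exact test cannot go below p = 0.333. The difference was 0.157 without RP2 and 0.1998 without RPC1, so its sign rested on single mice. Between the barcode wells of 1 mouse the share varied less, for example from 1.31 to 1.39% in RP2 and from 1.17 to 1.48% in RPC2. Between separately indexed sublibraries, with 5 to 28 endothelial nuclei each, it varied more. It ran from 0.434 to 1.22, 1.11 to 1.74, 0.641 to 1.11 and 0.769 to 1.91% in the order of the mice. Among the other cell types, nuclei meeting the alveolar type 1 list made up 0.251, 0.462, 0.193 and 0.935% of all nuclei, highest in RPC2, and the part of such lung tissue in the shares was not tested.

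The vessel types were then counted in nuclei thinned to 1000 transcripts, with a nucleus counted for a type when 2 markers of its list were seen. Thinning left 67, 90, 79 and 115 endothelial nuclei. The lists ran from 5 genes (general capillary) to 14 (tip or tumour vessel), the longest with Col4a1, Col4a2 and Insr at high levels. The shares therefore do not rank the vessel types. Tip or tumour vessel markers were seen in 68.7 and 53.3% of RP1 and RP2 nuclei and 58.2 and 35.7% of RPC1 and RPC2 nuclei, against 3.11 to 4.58% of all other nuclei. The means differed by -14.1 percentage points, and the genotypes overlapped (exact permutation p = 0.667, adjusted p = 0.933). They did not overlap in a second random thinning, with 61.2% in RP1 and 60% in RP2 against 55.7 and 30.4%, or with 3 markers asked for, with 34.3 and 34.4% against 27.8 and 13.0%, where p was 0.333, the smallest this exact test allows. Without 1 mouse the difference ran from -25.3 (RPC1 left out) to -2.77 (RPC2 left out). Arterial markers were seen in 16.4, 12.2, 17.7 and 15.7%, venous markers in 11.9, 18.9, 12.7 and 18.3%, lymphatic markers in 13.4, 6.67, 6.33 and 11.3%, and general capillary markers in 5.97, 11.1, 10.1 and 9.57%. All of these overlapped between genotypes. The other nuclei had at most 0.226% for arterial, 1.45% for venous, 1.0031% for lymphatic and 0.132% for general capillary markers.

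Aerocyte markers were seen in 0 of 67 and 0 of 90 nuclei of RP1 and RP2, where 0 seen leaves room for as much as 4.48 and 3.33%. In RPC1 they were seen in 2 of 79 nuclei and in RPC2 in 1 of 115. A second random thinning put RP1 at 1.49%, within the RPC values of 3.80 and 0.870%, so no difference was detectable at this depth. Cell cycle markers were seen in 31.3, 23.3, 22.8 and 29.6% of endothelial nuclei and in 41.1, 34.1, 42.8 and 49.9% of all others. In all 4 mice the share lay below that of the other nuclei. Mki67, the proliferation marker, was highest in sub-cluster 1 with 834 CPM, against 300.3 to 529 CPM in sub-clusters 2 to 5. The cell cycle list took 0.24% of transcripts in sub-cluster 1 and 0.0489 to 0.168% in the other sub-clusters. The shares above include sub-cluster 1, which carried most of the tumour RNA. Without thinning, 251 of the 411 nuclei carried 2 markers of more than 1 vessel type and 41 of none, so the types are not exclusive classes.

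The targeted genes come first in the comparison of RPC with RP. Casp8 counts in endothelial nuclei gave 96.8 and 123 CPM in RP and 119.6 and 117 CPM in RPC, and all other nuclei gave 58.6, 62.1, 93.1 and 67.3 CPM. The 2 genotypes overlapped, with a log2 fold change of 0.01 ± 0.27 (unadjusted p = 0.979). Rb1 gave 305 and 326 CPM in RP and 344 and 417 CPM in RPC. Since reads from the undeleted exons are counted too, the recombination itself was not checked by these levels.

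Few genes passed the test between RPC and RP endothelial nuclei. On counts summed per mouse, edgeR's quasi-likelihood test called 10 of 6913 genes at an adjusted p under 0.05 (0.145%), 4 higher and 6 lower in RPC. The largest rise was Fmo2, a flavin monooxygenase abundant in lung (chr1:162701873-162726295, GRCm39), at 14.3 and 24.0 CPM in RP and 219 and 300.3 CPM in RPC. Both RPC mice lay far above both RP mice, and the log2 fold change was 3.60 ± 0.37 (SE, edgeR adjusted p = 0.00244). In all other nuclei it had 5.85, 26.9, 118 and 57.8 CPM, also higher in RPC, and its endothelial level exceeded that of the other nuclei in both RPC mice. The non-coding gene 9530026P05Rik (chr6:92917271-93250030) had the same pattern, with 64.6 and 69.5 CPM in RP and 229 and 352 CPM in RPC in endothelial nuclei and 10.8, 23.9, 49.8 and 31.9 CPM elsewhere (log2 fold change 2.02 ± 0.31, adjusted p = 0.0346). On the opposite strand it overlaps Adamts9, a leading endothelial gene whose level was 986 and 1026 CPM in RP and 813 and 626 CPM in RPC. Reads of overlapping genes may be shared, and this was not tested.

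Corin, a serine protease that activates natriuretic peptide (chr5:72457290-72661924), and Frmpd4, a synaptic scaffold protein (chrX:166254305-167360227), also rose. Corin had 10.8 and 10.7 CPM in RP and 169 and 89.4 CPM in RPC in endothelial nuclei and about 2-fold more, 22.4, 26.2, 358 and 195 CPM, in the others (log2 fold change 3.48 ± 0.49, adjusted p = 0.0277). Frmpd4 had 176 and 251 CPM in RP and 1363 and 749.6 CPM in RPC, with 305, 473, 2216 and 1378 CPM in the others (log2 fold change 2.21 ± 0.32, adjusted p = 0.0314). Both followed the other nuclei at a lower level in each mouse. Without the nuclei that also met another list, most often the neuroendocrine one, Frmpd4 had a log2 fold change of 0.64 (adjusted p = 0.53), and over all alternatives its adjusted p ran from 3.68e-14 to 0.53.

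Of the 6 genes that fell, Cap1, an actin-binding protein, Trit1, a tRNA-modifying enzyme, and Pabpc4, a poly(A)-binding protein, lie within 439.889 kb of chromosome 4, at chr4:122752832-122779903, chr4:122910335-122948766 and chr4:123156144-123192720. Pabpc4 was at 359 and 264 CPM in RP and 24.8 and 17.4 CPM in RPC (log2 fold change -3.92 ± 0.33, adjusted p = 9.55e-04), and this was called under all 12 alternatives run, with adjusted p from 2.53e-22 to 0.0349. Cap1 was at 316 and 256 CPM in RP and 55.7 and 59.6 CPM in RPC (log2 fold change -2.38 ± 0.27) and Trit1 at 233 and 269.8 CPM in RP and 35.1 and 69.5 CPM in RPC (-2.37 ± 0.33). In the other nuclei of RP1 and RP2 these genes were higher still, for example Cap1 at 559 and 409 CPM. Ppt1, which overlaps Cap1 on the other strand, and Ppie, between Trit1 and Pabpc4, missed the threshold with log2 fold changes of -2.52 (adjusted p = 0.0548) and -2.66 (adjusted p = 0.0596).

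Lars2, the mitochondrial leucyl-tRNA synthetase (chr9:123195952-123291731), was at 15327 and 10727 CPM in RP and 4030.4 and 2656 CPM in RPC and at nearly the same level in all other nuclei (15997, 9770.3, 3623 and 2781 CPM), with a log2 fold change of -2.05 ± 0.31 (adjusted p = 0.0346). The share of transcripts given to Rn18s-rs5, a ribosomal RNA gene, was also lower in both RPC mice, at 7.65, 8.86, 3.65 and 5.35% in endothelial nuclei, and its part in the result was not tested. The predicted genes Gm30835 (chr5:7730108-8014301) and Gm42047 (chr8:122559877-122567924) were lower as well. Gm30835 had 139.9 and 246 CPM in RP and 6.19 and 7.45 CPM in RPC and Gm42047 had 78.9 and 72.1 CPM in RP and 6.19 and 0 CPM in RPC. For Gm42047 this was 49 against 3 counts, a ratio of 0.0451 with an exact counting interval of 0.00898 to 0.140. All 10 called genes had the same direction in all other nuclei, and for none of the 10 was the endothelial difference called apart from that of the other nuclei. Without sub-cluster 1, 6 of the 10 could be tested and 4 were called: Pabpc4, Fmo2, Lars2 and 9530026P05Rik. Cap1 and Frmpd4 lost the call with log2 fold changes of -2.62 and 2.08 (adjusted p = 0.0846 and 0.119, over all alternatives 3.01e-10 to 0.0846 for Cap1). The number of calls depended on single mice. With RP1 left out 30 genes were called, with RP2 left out 85, and 146 and 151 when RPC1 or RPC2 was left out, where the mouse left alone in its genotype is taken to vary like the others. DESeq2 called 17 genes, 9 of them among the 10, and 1 gene each was called without the deepest nuclei or under a stricter rule.

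**Figure D3:**
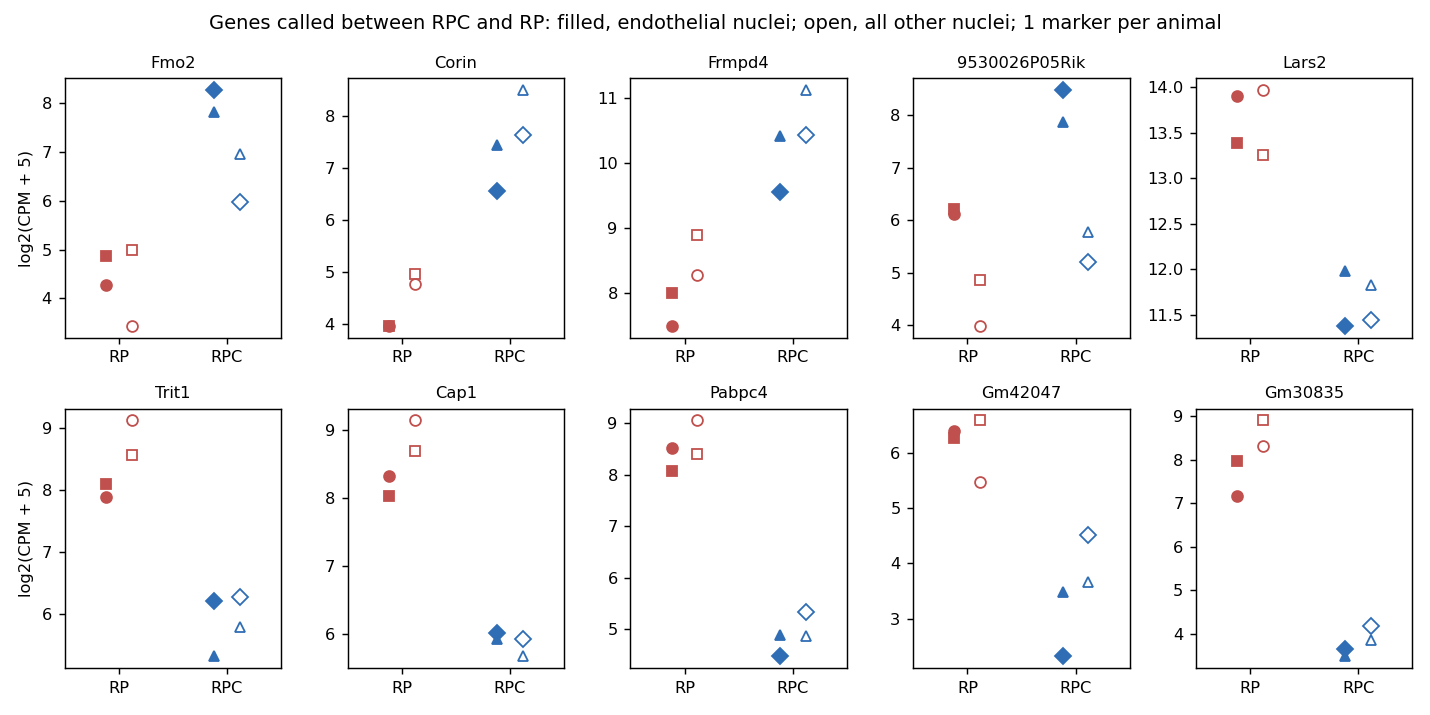
Level as log2(CPM + 5) of the 10 genes called between RPC and RP, with 1 marker per mouse (circle RP1, square RP2, triangle RPC1, diamond RPC2), filled for endothelial nuclei and open for all other nuclei. In each panel the 2 filled RP markers and the 2 filled RPC markers do not overlap, and the open markers show the same order of genotypes.

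Gene lists were read as counts and medians. Among all 6913 genes, 5.48% were higher in RPC and 6.54% lower at an unadjusted p under 0.05, and 3456 had a positive and 3457 a negative log2 fold change. None of the genes of the lists below passed adjustment in endothelial nuclei, so their values are given as measured, with edgeR's unadjusted p.

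In the tip or tumour vessel list, 10 of 14 genes could be tested, all 10 had a negative log2 fold change of RPC over RP, and 6 had an unadjusted p under 0.05. The median was -0.91, -0.81 without sub-cluster 1, and -0.89, -0.97, -1.77 and -0.58 without RP1, RP2, RPC1 and RPC2. Plvap gave 108 and 50.8 CPM in RP and 22.7 and 19.9 CPM in RPC, log2 -1.92 ± 0.47 (unadjusted p = 0.00182). Nid2, a nidogen, gave 89.7 and 34.7 CPM in RP and 20.6 and 4.96 CPM in RPC (-2.22 ± 0.64, unadjusted p = 0.00528). Dll4, the Notch ligand of tip cells, gave 136 and 74.8 CPM in RP and 55.7 and 24.8 CPM in RPC (-1.41 ± 0.43, unadjusted p = 0.00744). In each of these 3 genes both RPC mice lay below both RP mice. Col4a1 gave 897 and 839 CPM in RP and 617 and 308 CPM in RPC (-0.99 ± 0.30). Its partner chain Col4a2 gave 936 and 761 CPM in RP and 705 and 310.3 CPM in RPC (-0.82), and Mcam, an adhesion molecule, 111 and 136 CPM in RP and 84.6 and 79.4 CPM in RPC (-0.69). These 3 did not overlap between genotypes either, with RPC2 lowest. Angpt2, the antagonist of Tek, gave 82.5 and 37.4 CPM in RP and 41.3 and 9.93 CPM in RPC. Esm1, a secreted tip cell proteoglycan, gave 28.7 and 26.7 CPM in RP and 45.4 and 0 CPM in RPC. Insr gave 703 and 483 CPM in RP and 617 and 290.4 CPM in RPC. RPC2 was the lowest mouse for these 3 genes, and RPC1 lay within or above the range of the RP mice. The list took 0.534% of transcripts in sub-cluster 2 and 0.159 to 0.219% in the other sub-clusters. Sub-cluster 2 held 45.9, 48.3, 27.7 and 20.1% of the endothelial nuclei of the mice. Whether fewer such nuclei or less RNA in each gave the lower values was not tested.

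All 14 basement membrane genes could be tested, 13 had a negative log2 fold change, and 7 of them had an unadjusted p under 0.05. The median was -0.77 with and without sub-cluster 1. Hspg2, which encodes perlecan, gave 373 and 238 CPM in RP and 140.3 and 79.4 CPM in RPC (-1.53 ± 0.32, unadjusted p = 6.26e-04, edgeR adjusted p = 0.117). The laminin chain Lamb1 gave 158 and 88.1 CPM in RP and 28.9 and 37.2 CPM in RPC (-1.95 ± 0.38, unadjusted p = 3.70e-04, adjusted p = 0.0983) and Lama4, the alpha chain of vessel laminins, 298 and 174 CPM in RP and 126 and 57.1 CPM in RPC (-1.41 ± 0.37, unadjusted p = 0.00295). Nid1, a nidogen that joins laminin to collagen IV, gave 176 and 163 CPM in RP and 103 and 96.8 CPM in RPC. For these 4 genes the RP and RPC mice did not overlap. Sparc, which binds collagen, gave 251 and 229.7 CPM in RP and 274 and 156 CPM in RPC and did overlap. Itga1, a collagen receptor subunit, was the 1 gene with a positive value, at 215 and 216 CPM in RP and 272 and 290.4 CPM in RPC. Under the 12 alternatives the list median stayed between -1.12 and -0.60. With the mouse number as a block, Lamb1, Hspg2 and Lama4 were called (edgeR adjusted p = 0.00816, 0.00357 and 0.00767). The mouse numbers were not taken to pair the mice. DESeq2 called none of these genes (adjusted p = 0.218, 0.0992 and 0.389). Nor were they called under the stricter rule, without the deepest nuclei, without nuclei that met another list or without sub-cluster 1. Calls with 1 mouse left out are not counted here. Mural genes, given above, were also lower in RPC in these sums: 2 of 10 could be tested, Rgs5 and Notch3, both with an unadjusted p under 0.05 and with a median of -2.37. Neither their part in the lower tip, basement membrane and Notch values was tested, nor that of the number of sub-cluster 2 nuclei given above. Col4a1, Col4a2 and Nid2 stand in both this list and that of tip cells, so the 2 medians are not separate measurements.

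Notch signalling sets which cells of a sprout lead and which follow. Of its 14 genes 7 could be tested, all with a negative log2 fold change (median -0.78, -0.47 without sub-cluster 1), and 5 had an unadjusted p under 0.05. The receptor Notch1 gave 215 and 179 CPM in RP and 134 and 107 CPM in RPC. Notch4, the receptor found mainly in endothelium, gave 226 and 182 CPM in RP and 129.9 and 119 CPM in RPC. The ligand Jag1 gave 86.1 and 40.1 CPM in RP and 22.7 and 24.8 CPM in RPC, and Mfng, an enzyme that adds sugars to Notch, 68.1 and 50.8 CPM in RP and 22.7 and 22.3 CPM in RPC. In all 4 genes both RPC mice were below both RP mice. The target genes Hey1, Hey2, Heyl, Hes1 and Nrarp had too few counts to test, at 22.3 CPM or less.

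For VEGF, 5 of 8 genes outside the rule were tested and 1, Nrp2, a co-receptor, had an unadjusted p under 0.05, with 251 and 179 CPM in RP and 134 and 112 CPM in RPC (-0.87 ± 0.27, unadjusted p = 0.00748). The ligand Vegfa gave 71.7 and 109.5 CPM in RP and 96.9 and 84.4 CPM in RPC, and Vegfc, the ligand of lymphatic growth, 71.7 and 200.3 CPM in RP and 113 and 196 CPM in RPC. Both overlapped between genotypes. The receptors themselves chose the nuclei and are given with no test: Flt1 had 1313 and 1557 CPM in RP and 2252 and 2207 CPM in RPC. Kdr, the main signalling receptor of VEGF, had 233 and 147 CPM in RP and 182 and 124 CPM in RPC. Flt1 was thus higher in both RPC mice, and Kdr overlapped. Tek, the angiopoietin receptor, had 183 and 206 CPM in RP and 258 and 359.9 CPM in RPC, and Ptprb, the phosphatase that acts on it, 1402 and 1309 CPM in RP and 2098 and 1859 CPM in RPC. Both Tek and Ptprb were higher in both RPC mice. Cdh5 had 283 and 393 CPM in RP and 365 and 399.6 CPM in RPC. Pecam1 had 717 and 865 CPM in RP and 602 and 876 CPM in RPC, and both adhesion molecules overlapped. Adgrl4, an adhesion G protein-coupled receptor, had 405 and 435 CPM in RP and 806 and 879 CPM in RPC and Calcrl, part of the receptor for adrenomedullin and CGRP, 724 and 922 CPM in RP and 949 and 1457 CPM in RPC. Its partner Ramp2 had 39.4 and 34.7 CPM in RP and 47.4 and 59.6 CPM in RPC, a log2 fold change of 0.44 ± 0.39.

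Transport genes carry lipids, water and drugs across the vessel wall. Of 15 tested transport and caveolae genes, 9 had a positive and 6 a negative log2 fold change (median 0.31, 0.70 without sub-cluster 1, -0.01 without RP1, 0.02 without RPC2), 3 with an unadjusted p under 0.05 above and 2 below 0. Cd36 gave 290.5 and 214 CPM in RP and 532 and 529 CPM in RPC (0.998 ± 0.24, unadjusted p = 0.00175). Abcg2, a drug efflux pump, gave 43.0 and 42.7 CPM in RP and 96.9 and 141 CPM in RPC (1.38 ± 0.34, unadjusted p = 0.00212). Both pairs of mice were apart for these 2 genes. Lpl gave 7.17 and 61.4 CPM in RP and 55.7 and 241 CPM in RPC, with RPC1 below RP2. Plvap, above, and Aqp1, a water channel (86.1 and 123 CPM against 61.9 and 69.5 CPM), were the 2 lower genes. The caveola protein Cav1 gave 111 and 120.2 CPM in RP and 126 and 117 CPM in RPC (log2 -0.02 ± 0.26). In the list of vascular tone and clotting, 9 of 13 were tested. Edn1, the vasoconstrictor endothelin, gave 17.9 and 45.4 CPM in RP and 55.7 and 137 CPM in RPC (1.43 ± 0.53, unadjusted p = 0.0221). Nos3, the nitric oxide synthase, gave 104 and 107 CPM in RP and 88.7 and 112 CPM in RPC (-0.16 ± 0.28). Vwf was also higher in RPC (0.75 ± 0.24, unadjusted p = 0.0106), and so it was in all other nuclei (log2 1.05).

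**Figure D4:**
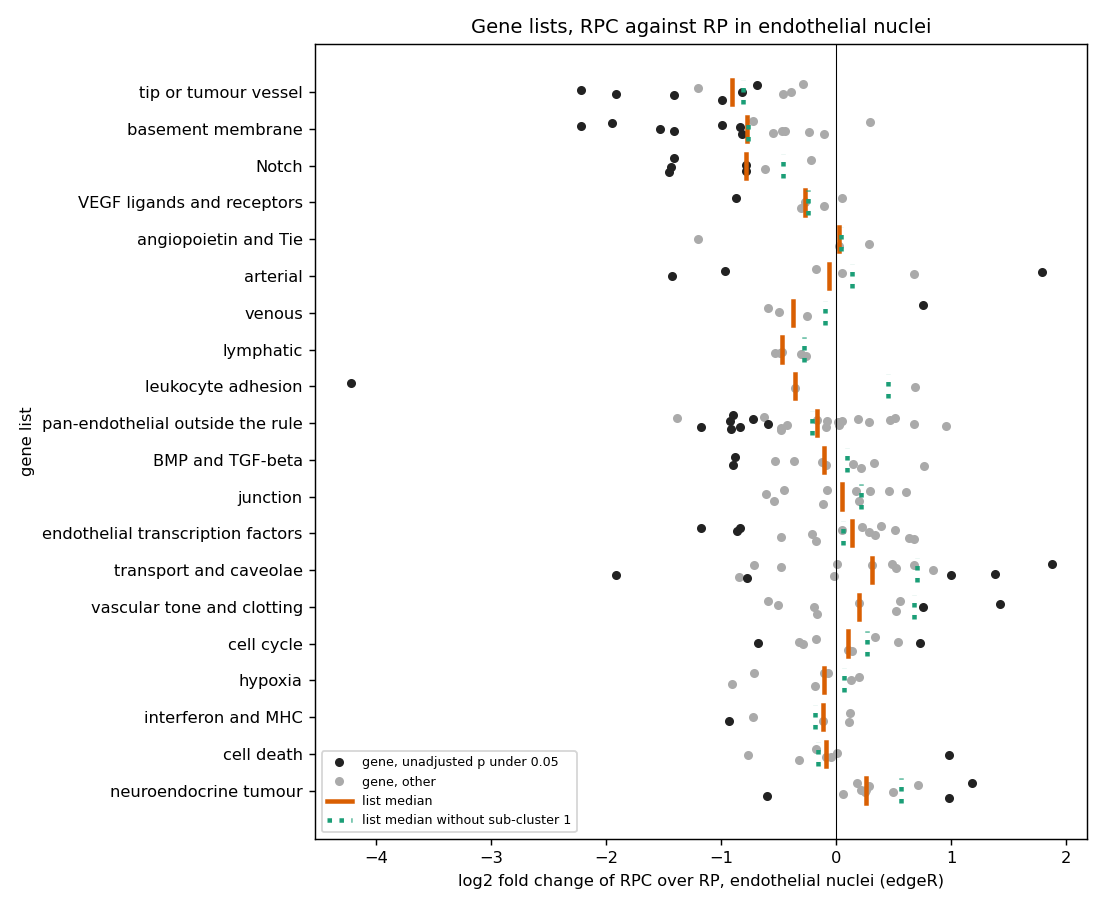
Log2 fold change of RPC over RP in endothelial nuclei (edgeR) for the tested genes of 20 lists, black where the unadjusted p was under 0.05, with the list median as a bar and the median without sub-cluster 1 as a dotted bar. All 10 tip or tumour vessel genes and 13 of 14 basement membrane genes lie left of 0, and the transport and caveolae genes lie on both sides.

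General endothelial genes outside the rule had a median of -0.16, with 7 of 25 tested genes at an unadjusted p under 0.05, all lower in RPC. They included Eng (-0.90 ± 0.25, unadjusted p = 0.00391), the sialomucin Emcn at 255 and 158 CPM in RP and 144 and 117 CPM in RPC (-0.72 ± 0.29), and Rasip1, a regulator of the vessel lumen, at 208 and 131 CPM in RP and 68.1 and 122 CPM in RPC, beside the factors Fli1 and Tal1. Epas1, the hypoxia-inducible factor of endothelium, was at 628 and 542 CPM in RP and 769 and 993 CPM in RPC (0.51 ± 0.24, unadjusted p = 0.0574). Among 14 tested endothelial transcription factors, 3 were lower at that p: Fli1, Tal1 and Elk3, an ETS factor at 312 and 323 CPM in RP and 194 and 176 CPM in RPC (-0.86 ± 0.24). The arterial list had genes on both sides, with Unc5b, a netrin receptor, at 89.7 and 131 CPM in RP and 47.4 and 39.7 CPM in RPC (-1.43, unadjusted p = 0.00146), Gja5 at 96.8 and 98.8 CPM in RP and 55.7 and 49.6 CPM in RPC (-0.97) and Bmx, a tyrosine kinase of arteries, at 14.3 and 8.01 CPM in RP and 45.4 and 34.8 CPM in RPC (1.79 ± 0.58, unadjusted p = 0.0104). All 5 tested lymphatic genes had a negative log2 fold change (median -0.48), none with a p under 0.05, and the median was 0.14 without RP1, the mouse with the highest Reln, 201 CPM. Of the general capillary list, Kit gave 104 and 198 CPM in RP and 72.2 and 84.4 CPM in RPC (-1.06 ± 0.34, unadjusted p = 0.00939) and Gpihbp1, which anchors Lpl, 35.9 and 53.4 CPM in RP and 45.4 and 52.1 CPM in RPC.

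BMP and TGF-beta genes had 4 positive and 6 negative values, with Tgfbr2 at 96.8 and 147 CPM in RP and 66.0 and 76.9 CPM in RPC (-0.88 ± 0.31, unadjusted p = 0.0168). The 10 junction genes tested were 5 on each side with none under an unadjusted p of 0.05. In the interferon and MHC list, H2-K1, a class I antigen-presenting molecule, gave 93.2 and 109.5 CPM in RP and 119.6 and 114 CPM in RPC (0.11 ± 0.27). None of the 7 tested hypoxia genes had such a p. Of the cell death genes, Fas, a death receptor, gave 75.3 and 72.1 CPM in RP and 159 and 149 CPM in RPC (0.98 ± 0.27, unadjusted p = 0.00379), with both RPC mice above both RP mice. Ripk1, a kinase at the branch of survival and death signals, gave 50.2 and 66.8 CPM in RP and 41.3 and 81.9 CPM in RPC, and Mlkl, which carries out necroptosis, 61.0 and 61.4 CPM in RP and 57.8 and 57.1 CPM in RPC. No neuroendocrine gene passed adjustment. Calca had log2 1.18 ± 0.25 (unadjusted p = 7.68e-04) in endothelial nuclei and 1.19 in all others, and a log2 fold change of 0.19 in endothelial nuclei without those that met another list. Of 11 tested neuroendocrine genes 10 were positive (median 0.25), 2 of them with an unadjusted p under 0.05, and 1 was lower at that p. These genes mark tumour RNA in the endothelial nuclei. The share of transcripts in this list was higher in both RPC mice, but so it was in all other nuclei (0.478, 0.413, 0.599 and 0.635%). Relative to the other nuclei it was 55.2, 56.2, 65.1 and 56.8%, so the list share does not measure the amount of tumour RNA between genotypes. The part of tumour RNA in the values above was not tested beyond the medians without sub-cluster 1. The mural gene Rgs5 was lower, with 68.1 and 40.1 CPM in RP and 16.5 and 9.93 CPM in RPC (unadjusted p = 0.00249).

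Whether these differences were larger or smaller than in the rest of the tumour was asked by testing the difference of 2 differences, RPC minus RP in endothelial nuclei against RPC minus RP in all other nuclei of the same mice. Most of the rest met the neuroendocrine list. Of all nuclei, 77.4 and 71.6% in the RP mice and 91.4 and 89.5% in the RPC mice met it. The list was read without thinning, the RPC nuclei were deeper, and the list took more of their transcripts. These percentages therefore do not measure the share of tumour nuclei in each genotype. A gene called here differed from the mix of all other nuclei, and other stromal cells were not compared. In this fit edgeR took the spread of each gene entirely from a trend over all genes (infinite prior degrees of freedom). The SE and p of a gene here therefore do not measure its own spread between mice. edgeR called 51 of 18752 genes (0.272%), 20 with a more positive and 31 with a more negative difference in endothelial nuclei. Flt1 was 1 of them and, as a rule gene, is not read further. Of the other 50, 25 also had an unadjusted p under 0.05 within endothelial nuclei, 10 higher and 15 lower in RPC, and the remaining 25 had no such p there. The genes below were picked from the 25, or as list genes, after their values were seen.

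Meis1, a homeobox factor, was at 71.7 and 88.1 CPM in RP and 136 and 164 CPM in RPC in endothelial nuclei and at 40.1, 22.4, 9.58 and 7.73 CPM in the others. It was higher in RPC in the former and lower in the latter, a difference of 2.66 ± 0.35 (SE) on the log2 scale (adjusted p = 3.10e-10). Fam117b was at 247 and 238 CPM in RP and 458 and 693 CPM in RPC, with 63.1 to 75.1 CPM in the others (difference 1.44 ± 0.22, adjusted p = 5.72e-07). Myrip, a link of secretory granules to myosin, was at 115 and 166 CPM in RP and 359 and 382 CPM in RPC and at 103 to 132 CPM in the others (1.54 ± 0.24, adjusted p = 5.72e-07). In all 3 the endothelial nuclei of both RPC mice were above those of both RP mice, and all 3 were called under each of the 11 alternatives run, with edgeR or DESeq2 adjusted p from 5.08e-11 to 0.0419.

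Of the general capillary list 1 of 5 genes was called higher, Sema3c, and of the transport list 1 of 16, Lpl. Sema3c had 43.0 and 166 CPM in RP and 136 and 395 CPM in RPC and 8.33 to 11.9 CPM in the others (difference 1.64 ± 0.32, adjusted p = 4.29e-04), Lpl had a difference of 2.27 ± 0.47 (adjusted p = 8.14e-04), and Hpgd, which degrades prostaglandins, had 3.59 and 29.4 CPM in RP and 51.6 and 204 CPM in RPC with a difference of 3.27 ± 0.72 (adjusted p = 0.00331). Within endothelial nuclei alone the log2 fold changes were 1.19 ± 0.56, 1.88 ± 0.74 and 2.69 ± 0.76 (edgeR unadjusted p = 0.0568, 0.028 and 0.00474). For Sema3c and Lpl the genotypes overlapped, since RP2 lay above RPC1, and RP1 had the lowest value of all 3 genes. Of the alternatives, 8 of 11 called Sema3c, 6 of 11 Lpl and 6 of 10 Hpgd. RP1 also had 1 nucleus in the general capillary-like sub-cluster, and whether fewer such nuclei or less RNA in each gave these values was not tested. RPC2 was highest in these 3 genes and in the share of alveolar type 1 nuclei given above, whose part in them was not tested.

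Of the 14 basement membrane genes 1 was called lower, Lama4. Among the other genes with a negative difference, Zfp521, a zinc finger protein, was at 534 and 339 CPM in RP and 217 and 169 CPM in RPC and at 5.19 to 20.4 CPM in the others (difference -1.81 ± 0.26, adjusted p = 1.49e-08). Lama4 had a difference of -1.98 ± 0.34 (adjusted p = 9.93e-06), and Col15a1, a collagen of the vessel basement membrane, had 118 and 45.4 CPM in RP and 33.0 and 17.4 CPM in RPC with -2.54 ± 0.51 (adjusted p = 6.10e-04). Synpo, an actin-associated protein, was at 409 and 459 CPM in RP and 212 and 149 CPM in RPC (-1.34 ± 0.23, adjusted p = 1.65e-05), and Smtn, smoothelin, at 186 and 118 CPM in RP and 45.4 and 37.2 CPM in RPC (-1.46 ± 0.36, adjusted p = 0.026). Wwtr1, which encodes the Hippo effector TAZ, was at 201 and 243 CPM in RP and 119.6 and 102 CPM in RPC (-1.36 ± 0.32, adjusted p = 0.0104). In each of these 6 genes both RPC mice were below both RP mice in endothelial nuclei. Nox4, an NADPH oxidase, had 78.9 and 29.4 CPM in RP and 2.06 and 19.9 CPM in RPC (-2.95 ± 0.68). Selp, the selectin that captures leukocytes, had 18 and 11 counts in RP1 and RP2 and 0 and 2 in RPC1 and RPC2, a ratio of RPC to RP of 0.0507 with an exact counting interval of 0.00587 to 0.201. It was called by 2 of 10 alternatives. Shank3, a scaffold protein of the endothelial list, was at 602 and 564 CPM in RP and 466 and 419 CPM in RPC (-1.18 ± 0.22, adjusted p = 1.13e-04). Without nuclei that met another list, 3 of them the mural list, no gene of this paragraph was called. Smtn, Nox4 and Col15a1 then had differences of -0.82, -2.09 and -2.51. The part of mural RNA in these values was not tested.

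Without sub-cluster 1, 11 of the 50 genes were still called, among them Meis1, Fam117b, Myrip, Sema3c, Zfp521 and Samd4. Lama4, Synpo and Wwtr1 then had differences of -1.52, -1.34 and -1.61, with an edgeR adjusted p of 0.297 each, and over all alternatives it ran from 3.06e-06 to 0.297 for Lama4, from 1.90e-05 to 0.360 for Synpo and from 0.00206 to 1 for Wwtr1. DESeq2 called 8 genes in place of 51. Leaving out RP1, RP2, RPC1 or RPC2 gave 21, 100, 39 and 43 genes.

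**Figure D5:**
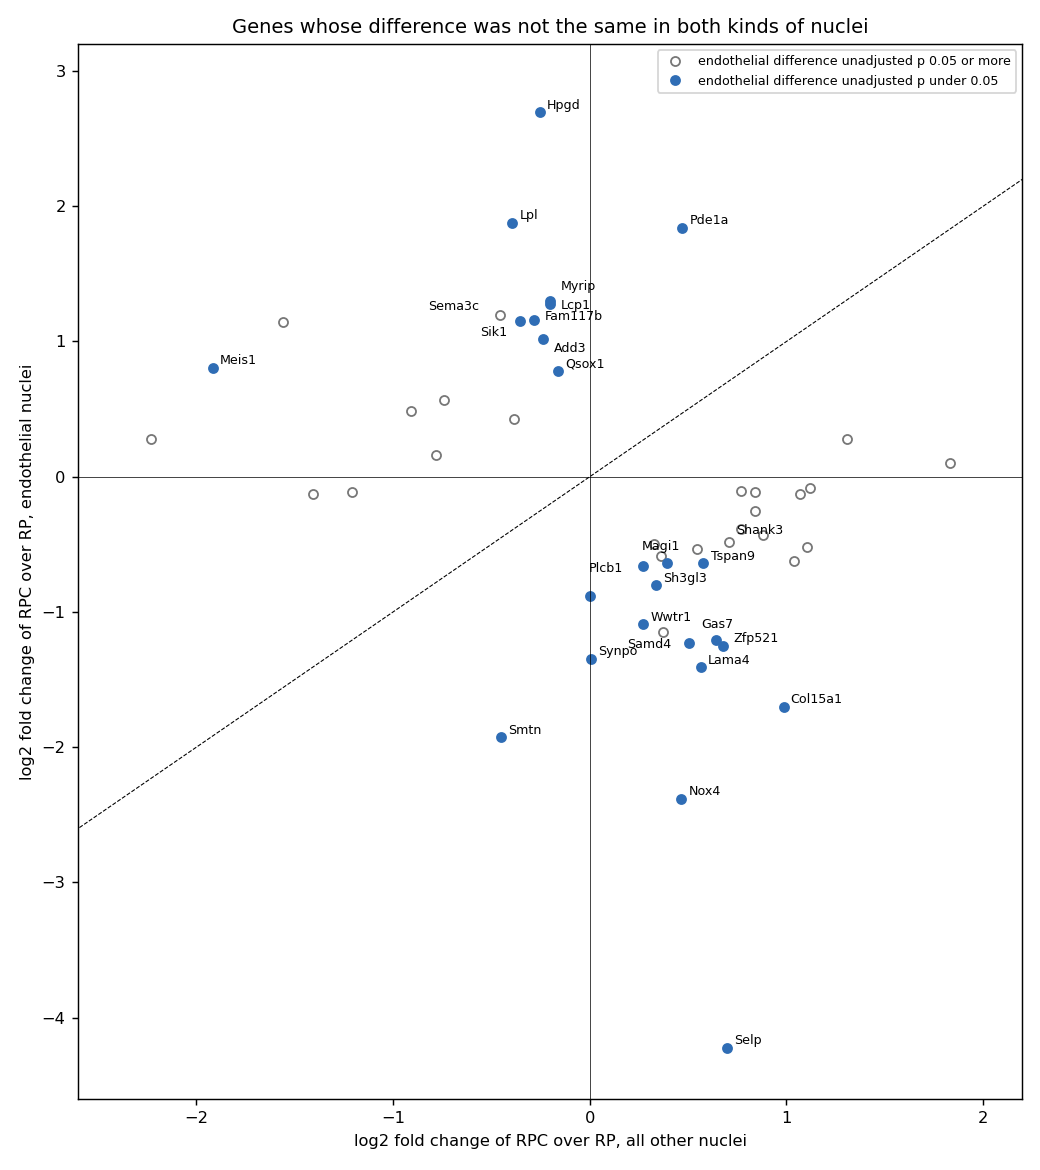
Log2 fold change of RPC over RP in endothelial nuclei against that in all other nuclei for the 50 genes whose 2 differences were called unequal, filled where the endothelial difference had an unadjusted p under 0.05; the dashed line marks equal differences. Meis1 and Hpgd lie above the line and Selp, Nox4 and Lama4 below it.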

How the data were processed

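Nuclei of the 4 mice were fixed and barcoded with the Evercode kit, sequenced as 7 libraries and aligned to GRCm39, per the labels. For each mouse the authors deposited a matrix of counts (distinct transcripts per gene and nucleus, not normalized) with a table of nuclei. The filters of the study were applied as written in its methods: at least 300 transcripts, at most 10% mitochondrial transcripts and at most 12000 genes. No doublet caller was run, and nuclei above 4 times the median depth of their mouse were left out as an alternative. No full barcode was shared between mice. The first-round wells gave the mouse. Across the separately indexed sublibraries, 13950 kept nuclei had the same 3 wells as a nucleus of another sublibrary, 153 endothelial nuclei among them, and 4 pairs were both endothelial.

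Endothelial nuclei were taken by the rule of at least 3 of 11 genes and 0.25% of transcripts. Their counts were summed per mouse and tested between RPC and RP with edgeR 4.0.16 (quasi-likelihood test, TMM, filterByExpr, Benjamini-Hochberg adjustment over all genes tested, threshold 0.05) in R 4.3.3. The difference from all other nuclei was tested as an interaction in 1 fit over 8 sums, with the mouse as a covariate. All p in the text without another name come from edgeR. The quasi-likelihood script was tested on simulated data. CPM ratios used an offset of 5. Sub-clusters came from 1000 variable genes, 15 principal components, 15 neighbours and the Leiden algorithm (leidenalg 0.10.2, seed 1). For vessel types, nuclei were thinned to 1000 transcripts, which left out 7, 30, 4 and 19 endothelial nuclei of RP1, RP2, RPC1 and RPC2. Shares were compared by exact permutation over the mice. Alternatives were DESeq2 1.42.0, its size factors, no filter, other rules for nuclei, a replicate block and leaving out each mouse.

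Named genes were the genes called, list genes of high level or with an unadjusted p under 0.05, the 25 leading genes and the 10 leading genes of each sub-cluster. The rule, the gene lists and the genes called by the interaction were chosen with earlier results of these data known. The labels call the mice separate animals, and nothing further is stated on litters or days. Transcripts per mouse set the precision: genes with few counts in 278850 to 484811 transcripts were not testable. A few genes are not reported here.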

Additional observations from a re-analysis of the deposited data

Results flagged for a closer look

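For 51 genes the difference between RPC and RP was not the same in endothelial nuclei as in all other nuclei of the same mice, by edgeR's test of the difference of the 2 log2 fold changes (endothelial minus other). Flt1, 1 of the 51, belongs to the genes that chose the nuclei. The values below are that difference for the named genes that also had an unadjusted p under 0.05 within endothelial nuclei or stand in a gene list.

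Positive values were found for Lpl, lipoprotein lipase, at 2.27, Hpgd, a prostaglandin-degrading enzyme, at 3.27 and Sema3c, a semaphorin, at 1.64. Meis1 had 2.66 and Sik1, a salt-inducible kinase, 1.57. Myrip had 1.54, Lcp1, an actin-bundling protein, 1.56, and Add3, an adducin, 1.36. Fam117b had 1.44, Pde1a, a phosphodiesterase, 1.5 and Qsox1, a sulfhydryl oxidase, 0.96. Pde1a was negative under 4 of 11 alternatives, from -2.54 to -0.0714.

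Negative values were found for Lama4 at -1.98, Col15a1 at -2.54 and Selp at -5.09. Selp rested on 31 counts in endothelial nuclei, 2 of them in RPC. Smtn had -1.46, Synpo -1.34, Magi1, a junction scaffold, -1.03 and Shank3 -1.18. Zfp521 had -1.81 and Wwtr1 -1.36. The RNA-binding protein gene Samd4 had -1.73 and the tetraspanin Tspan9 -0.97. Nox4 had -2.95, Gas7 -1.95, Sh3gl3 -1.14 and Plcb1, a phospholipase, -0.94.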

How the results depend on the processing

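Between RPC and RP endothelial nuclei 10 genes were called. DESeq2 called 17, no filter on low counts 198, the stricter rule for nuclei 1, leaving out deep nuclei 1 and leaving out nuclei that met another list 19. Leaving out 1 mouse gave 30 to 151. The replicate block, with the mouse number as a block, gave 123, but same-numbered mice did not deviate together (r = 0.02 over 6913 genes). Such a correlation cannot exclude a shared litter or day, and the numbers were not taken to pair the mice. For the interaction, 51 genes became 8 with DESeq2, 25 without nuclei meeting another list, and 11 without sub-cluster 1, an alternative chosen after seeing the data. Leaving out 1 mouse gave 21 to 100. The cause of these changes was not tested.

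The difference in the endothelial share ran from -0.354 to 0.1998 percentage points when 1 mouse was left out, and kept its sign under the other rules. For tip or tumour vessel markers it was -25.3 to -2.77 with 1 mouse left out. For general capillary markers the difference was -1.15 with at least 3 markers and -1.27 to 3.88 with 1 mouse left out. Venous markers gave -0.533 with at least 3 markers, -0.108 without thinning and -3.43 to 3.52. Lymphatic markers gave 1.93 without thinning and -4.62 to 2.15. Cell cycle markers gave 2.47 with at least 1 marker, 6.35 without thinning and -5.17 to 2.84.

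Of 624 values of 56 genes under the alternatives, 537 kept their direction and their side of the threshold, 61 newly passed it, 23 no longer passed it and 3 turned: Pcsk1 to -0.20 and Mki67 to -0.41 without nuclei meeting another list, and Anln to 0.0113 without deep nuclei. Of 293 values of 27 genes in the interaction, 147 kept both and 141 no longer passed. Pde1a turned to -0.29 under the stricter rule, -0.0714 without deep nuclei, -2.54 without nuclei meeting another list and -1.07 without sub-cluster 1, and Tspan9 ranged from -1.88 to 0.14 with 1 mouse left out. With 2 mice a genotype, and 74 to 134 nuclei in each, only large differences could pass.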
